A study of Arabidopsis lyrata with 12 samples.

Results

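The 300 genes with the smallest span in the deposited mRNA table of Arabidopsis lyrata were described by the chromatin marks over them, by their mRNA coverage and by their place on the scaffolds. They are 300 of 24268 listed genes, ranked by span alone (end minus start, both ends included, ties by identifier). No mark and no mRNA value entered the ranking. The lowest coverage listed is 1, however, so genes without reads may be absent from the mRNA table and could then not be chosen. Young leaves came from soil-grown plants of accession MN47 kept at 22.5 °C under a photoperiod of 16 hours. No genotype change or treatment is labelled. The study profiled H3K4me3, H3K27me3 and H3K27me1 (histone H3 methylated at lysine 4 or 27) and 5-methylcytosine (5mC, by immunoprecipitation of methylated DNA) with 2 libraries each, beside input libraries and 1 mRNA library. Each mark has a single deposited domain list and each gene a single mean exon coverage, so no value below has a replicate error and no test was made. Shares carry 95% Clopper-Pearson (exact) intervals, and these allow for counting error alone. Sequencing depth is unknown for every library. The files pair no gene with a name, so the leaf label could not be checked against marker genes.

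Trithorax-type methyltransferases lay down H3K4me3, which in plants marks the start region of genes that are transcribed. H3K27me3 is set by Polycomb complexes on genes that are held silent, often over the whole gene and its surroundings. H3K27me1 and cytosine methylation are known from transposons and pericentromeric heterochromatin. Very short plant genes include those for transfer RNAs (tRNAs), the adaptors of translation, which RNA polymerase III transcribes from promoter elements inside the gene. They also include genes of small peptides, gene fragments and parts of longer genes cut at the edge of an assembled scaffold.

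The members fell into a compact group the size of a tRNA gene and a broad group above it. Spans ran from 65 to 465 bp with a median of 293 bp, against a median of 2235 bp over all listed genes. There were 78 members under 100 bp, of which 59 measured 70 to 74 bp, while 18 measured from 100 to under 150 bp. The limit of 100 bp was set after the spans were seen. A RefSeq gene table of assembly v.1.0 shares no identifier with the deposited table (0 of 24268). It does, however, hold genes with identical coordinates: 44 members had both the start and the end of a RefSeq gene, and all 44 of those genes are annotated as tRNA. The RefSeq table names 570 tRNA genes, with a median length of 73 bp, among 34365 genes. None of the 33795 genes of other classes shared both ends with a member, and 2 longer listed genes matched a RefSeq gene. The RefSeq table gives no scaffold, so each match rests on both ends alone. The build of the deposited coordinates is not stated, and these matches are the sole link to v.1.0 found here.

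**Figure D1:**
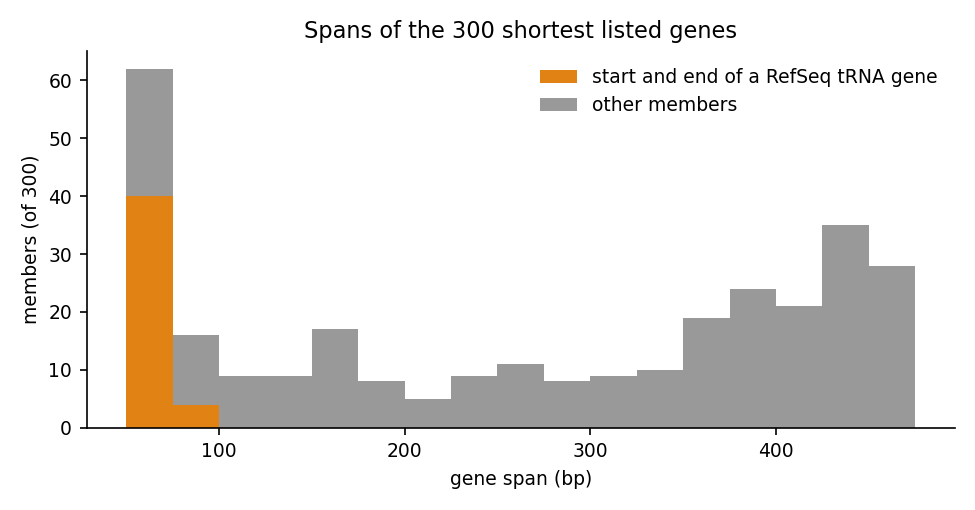
Number of members (vertical axis) in bins of 25 bp of gene span (horizontal axis, bp), with members that share both ends with a RefSeq tRNA gene in orange and the others in grey. The 44 matched members span 71 to 87 bp, and the grey bars are tallest above 350 bp and below 75 bp.

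The 44 matched members carried 23 RefSeq symbols, which give the amino acid in 1-letter code and the anticodon, and covered 16 amino acids. Proline was the most frequent, with 8 members matched to TRNAP-UGG and 3 to TRNAP-AGG. TRNAC-GCA (cysteine) had 4 members, and TRNAD-GUC (aspartate), TRNAF-GAA (phenylalanine) and TRNAM-CAU (methionine) had 3 each. The other 34 members under 100 bp, 65 to 99 bp long, had no match and are given here by identifier alone. The shortest was AL3G21020 (scaffold 3, 4009170 to 4009234, 65 bp) with a coverage of 3.44, followed by AL1G26810 (scaffold 1, 6392926 to 6392992, 67 bp) with 1.60 and AL7G14180 (scaffold 7, 1741443 to 1741511, 69 bp) with 2.00. At the other side of the limit, the last members were AL6G34620 (scaffold 6, 10279716 to 10280179, 464 bp), with a coverage of 1.38, and AL2G15800 (scaffold 2, 3110752 to 3111216, 465 bp), with 6.02. The first genes left out were AL3G46640 (scaffold 3, 20721605 to 20722069) and AL781U10020 (scaffold 781, 3977 to 4441). Both also span 465 bp, and their coverage was 3.13 and 52.2.

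Genes this short limit what the deposited coverage can be a mean over. A mean over every base of a span is a whole number of read bases divided by that span. Of the 45 members under 100 bp that were not listed at exactly 1, 34 had such a value within the 6 digits given. The other 11 could not be a mean over the full span, and all 11 equalled a fraction with a smaller denominator. AL1G41670, 72 bp long, was listed at 1.28, which is 55 divided by 43. AL1G60110, also 72 bp, was listed at 1.94, which is 60 divided by 31. Such values can arise from a mean over covered bases alone or over exons shorter than the span. With a mean over covered bases, a value of exactly 1 stands for bases read a single time, however few they are, and no gene without reads can be listed.

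The short genes stood low in the mRNA library. Their median coverage was 1.94 (quartiles 1 and 4.53), against 7.02 over all listed genes, 3.05 for the next 300 genes by span (465 to 580 bp) and 4.23 for the 300 after those. Coverage of exactly 1, the floor of the table, was listed for 78 members (26.0%, interval 21.1 to 31.4%), against 8.23% of all listed genes and 21.0% of the next 300. A coverage of at least 10 was reached by 34 members (11.3%), against 38.7% of all listed genes. The share at the floor was highest in the tRNA-sized members: 33 of 78 under 100 bp (42.3%), 17 of 76 from 100 to under 300 bp (22.4%) and 28 of 146 from 300 bp up (19.2%). Among the 44 members matched to a tRNA gene 22 were at exactly 1, and their median was 1.14. The labelled library kit (TruSeq RNA Sample Prep) selects RNA with a poly(A) tail, which mature tRNAs lack, and its part in these values was not tested. In a leaf made of many cell types, fewer cells with a transcript and less of it per cell cannot be told apart.

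Single tRNA-matched members stood above this level. AL2G19950 (scaffold 2, 8769829 to 8769902), matched to TRNAW-CCA (tryptophan), had a coverage of 16.8. AL7G49390 (scaffold 7, 23139348 to 23139419), matched to TRNAP-AGG, had 11.8, and AL6G45760 (scaffold 6, 21765916 to 21765988), matched to TRNAA-AGC (alanine), had 8.70. These 3 were the only matched members with a coverage of at least 5. All 3 members matched to TRNAD-GUC were at exactly 1. The tRNA-matched members named here were singled out after their values were seen.

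Many of the shortest genes lie inside another listed gene, and their coverage may hold that gene's reads. Of the 300 members 93 overlapped another listed gene (31.0%, interval 25.8 to 36.6%), against 2.35% of all listed genes and 6 of the next 300. The share was 52 of 78 under 100 bp (66.7%), 33 of 76 from 100 to under 300 bp (43.4%) and 8 of 146 from 300 bp up (5.48%). In 81 of the 93 the whole span lay inside the other gene, whose median span was 2595 bp, and the other gene was a member in 0 cases. The member's coverage was lower than that of the longer gene in 79 of the 93, higher in 12 and equal in 2. The medians were 1.60 for the members and 5.13 for the longer genes. All 28 tRNA-matched members that overlapped another gene were lower than it. Strand is absent from the files, so reads of a member and of the gene around it cannot be told apart. The 207 members that overlap no listed gene had a median of 2.25, with 48 at exactly 1, so the low level was also found where no listed gene overlaps. In the 26 of these under 100 bp the median was 1.5, and in the 181 others 2.64.

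The members with the highest coverage all had at least 270 bp and overlapped no listed gene. AL8G20720 (scaffold 8, 11679225 to 11679684, 460 bp) reached 174, with 65.2% of its span in an H3K4me3 domain. AL2G25230 (scaffold 2, 12776687 to 12777121, 435 bp) reached 160.5 and AL1G21320 (scaffold 1, 4196335 to 4196769, 435 bp) 78.9. Both had H3K27me3 over most of the span (96.8 and 84.8%) and were not touched by H3K4me3. AL2G25670 (scaffold 2, 12950456 to 12950913, 458 bp) had 69.6 and AL1G32160 (scaffold 1, 8514834 to 8515222, 389 bp) had 59.9, both wholly inside H3K4me3 domains. Over all 300 members, 30.0% had H3K4me3, 13.3% had H3K27me3 and 49.0% were touched by no domain. Among the 10 highest members, with coverage from 30.7 to 174, 5 had H3K4me3, 3 had H3K27me3 (AL1G48140 had both) and 2 were touched by no domain. AL450U10020 was touched by H3K4me3 over 16.7% of its span. Those without any domain were AL8G20710 (scaffold 8, 11676856 to 11677304), at 32.3, and AL152U10010 (scaffold 152, 1 to 321), at 30.7. AL8G20710 is the nearest listed gene to AL8G20720, 1920 bp away.

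**Figure D2:**
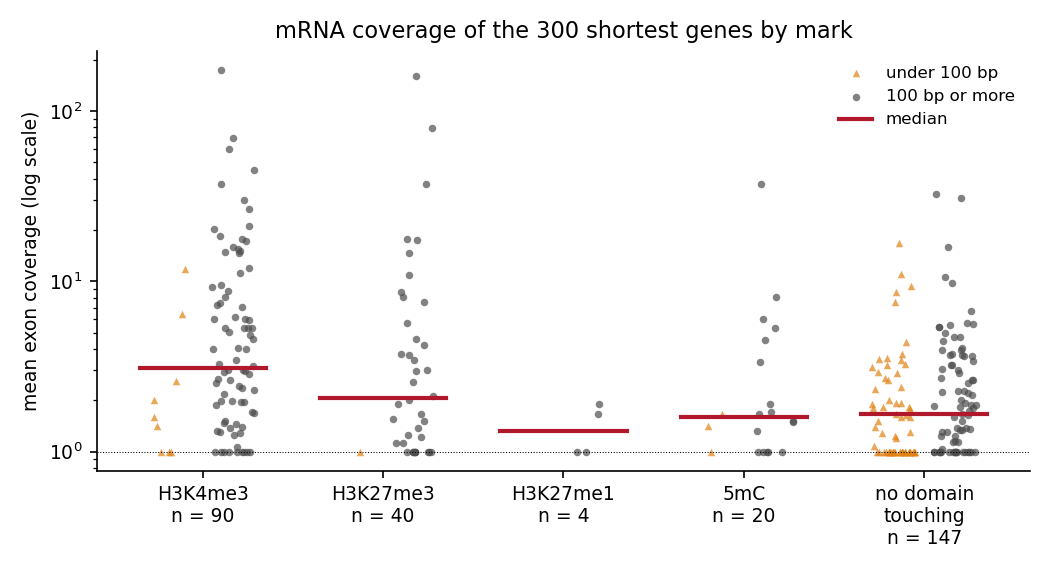
Mean exon coverage of single members in the mRNA library (vertical axis, log scale, no unit of depth given) by mark over at least 50% of the span, or with no domain of any mark touching the gene; a member with several marks appears under each. Triangles are members under 100 bp, circles the others, red lines medians, and the dotted line the table's floor of 1. The median is 3.11 with H3K4me3 and 1.66 with no domain touching.

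H3K4me3 was the mark most often found over the members, and its share depended on how a mark is counted. Domains covered at least 50% of the span of 90 members (30.0%, interval 24.9 to 35.5%), against 23.7% of all listed genes and 47.7% of the next 300 by span. Any contact with a domain was found in 98 members (32.7%), against 79.6% of all listed genes and 51.3% of the next 300. At the midpoint of the gene the shares were 31.0, 26.8 and 50% in the same order. At the midpoint the members' interval, 25.8 to 36.6%, held the share of all listed genes. With the top 50% of the list by the authors' domain score, at least 50% of the span was covered in 24 members (8%), against 16.7% of all listed genes and 10.3% of the next 300. The members thus stood above all listed genes with every domain counted over at least 50% of the span, and below them for any contact or for the higher-scoring domains. A domain that touches a short gene covers most of it. Only 8 members were touched and covered for less than 50%, against 13578 of the 24268 listed genes. The share did not change evenly with span. It was 9 of 78 members under 100 bp (11.5%, interval 5.41 to 20.8%), 33 of 76 from 100 to under 300 bp (43.4%, interval 32.1 to 55.3%) and 48 of 146 from 300 bp up (32.9%, interval 25.3 to 41.1%).

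**Figure D3:**
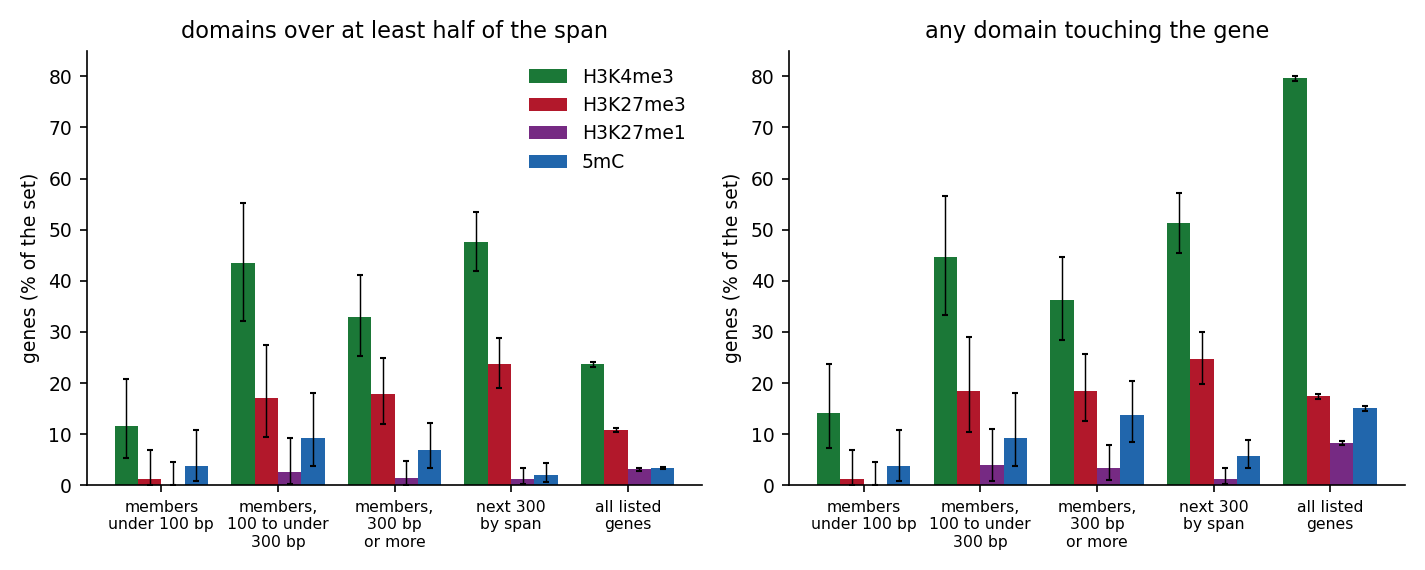
Share of genes (vertical axis, %) with each mark over at least 50% of the span (left) or touched by any domain (right), for 3 length classes of the members, the next 300 genes by span and all listed genes; lines are exact 95% intervals. H3K4me3 reaches 11.5% of members under 100 bp on the left, and 79.6% of all listed genes on the right.

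In many members the H3K4me3 domain lay more in a neighbouring gene than in the member. The domain with the most base pairs in the member had still more of them in other listed genes, outside the member, in 33 of the 90 (36.7%, interval 26.8 to 47.5%), against 2.09% of all listed genes with H3K4me3 and 12 of 143 among the next 300. Without the members that overlap a listed gene, for which nearly the whole domain can count as lying in the other gene, the share was 9 of 65 (13.8%), against 1.67% of all such genes with H3K4me3. The domain touched another listed gene in 35 of the 90 (38.9%), against 7.23% of all with H3K4me3. The centre of the domain lay in the member itself in 48, in another listed gene in 29 and in no listed gene in 13. A domain wider than the gene it covers must leave that gene, so these counts also reflect the short span. The domains had a median width of 600 bp, against 1050 bp for those over all listed genes with the mark, and reached beyond both ends of 49 members. They had 35.5% of their base pairs in the member, 43.8% in other listed genes and 20.7% in no listed gene. For the next 300 with H3K4me3 these shares were 70.6, 16.8 and 12.6%, and for all listed genes with it 91.9, 3.98 and 4.11%.

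Members under 100 bp with H3K4me3 lay in domains that extend over longer genes. All 9 that carried the mark were crossed by a domain with more base pairs in another listed gene, 600 to 2100 bp wide, and 91.3% of the base pairs of those domains lay in other genes. The centre fell inside the member in 2 of the 9. Among the 26 that overlap no listed gene 1 carried H3K4me3. AL1G18070 (scaffold 1, 2931050 to 2931124, 75 bp) was listed at exactly 1 inside a domain of 600 bp, of which 525 bp lay in the overlapping AL1G18060, with a coverage of 182. AL1G18090 (scaffold 1, 2941440 to 2941511, 72 bp) was also listed at 1, inside a domain of 1200 bp with 1128 bp in the overlapping AL1G18080, with a coverage of 239. AL7G49390, matched to TRNAP-AGG and named above for its coverage, lay in a domain of 1350 bp and overlapped a gene with a coverage of 76.3. AL7G14180 lay in a domain of 2100 bp, of which 1990 bp belonged to 2 other listed genes.

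Most larger members with H3K4me3 had a domain that touched no other listed gene. There were 55 of these, all at least 100 bp long, with a median span of 389 bp and a median domain width of 450 bp. Their median coverage was 4.06, with 16 at 10 or more and 5 at exactly 1. The 35 members whose domain touched another gene had a median span of 161 bp, a median coverage of 2.41 and a median domain width of 1050 bp, with 4 at 10 or more. Outside the members the order was the other way: the next 300 had medians of 20.7 where the domain touched another gene and 6.06 where it did not, and all listed genes had 18.9 and 13.9. Over all 90 the median coverage was 3.11 and 12 were at the floor (13.3%), against a median of 14.2 and 1.90% at the floor for all listed genes with H3K4me3. In the next 300 by span the median with H3K4me3 was 7.15 and 10 of 143 were at the floor. The 210 members without H3K4me3 over at least 50% of the span had a median of 1.66, with 66 at the floor. From 300 bp up, the medians were 5.45 with H3K4me3 (48 members) and 1.84 without (98 members).

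The nearest listed gene was touched by H3K4me3 for 76 of the 86 members with H3K4me3 that have a neighbour on their scaffold (88.4%), and for 129 of 205 without it (62.9%). Over all listed genes these shares were 81.5 and 79.4%. The same domain may touch both genes. At least 50% of the neighbour's span was covered for 35 of the 86 (40.7%) and 36 of the 205 (17.6%), against 25.5 and 22.1% over all listed genes. The H3K4me3 domains over members had low scores, a value the authors gave each domain: the median was 557, against 1002 over the whole list. They were also narrower, with median widths of 600 and 750 bp. For H3K27me3 and 5mC the order of scores was the other way, with medians of 1217 against 734 and 1719 against 709. For H3K27me1, with 4 domains over members, it was 119 against 241. For the 24 members covered by the top 50% of the H3K4me3 list, 87.5% had a domain that lay more in another listed gene. The matching share over all listed genes is not given here, so this value has no background.

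**Figure D4:**
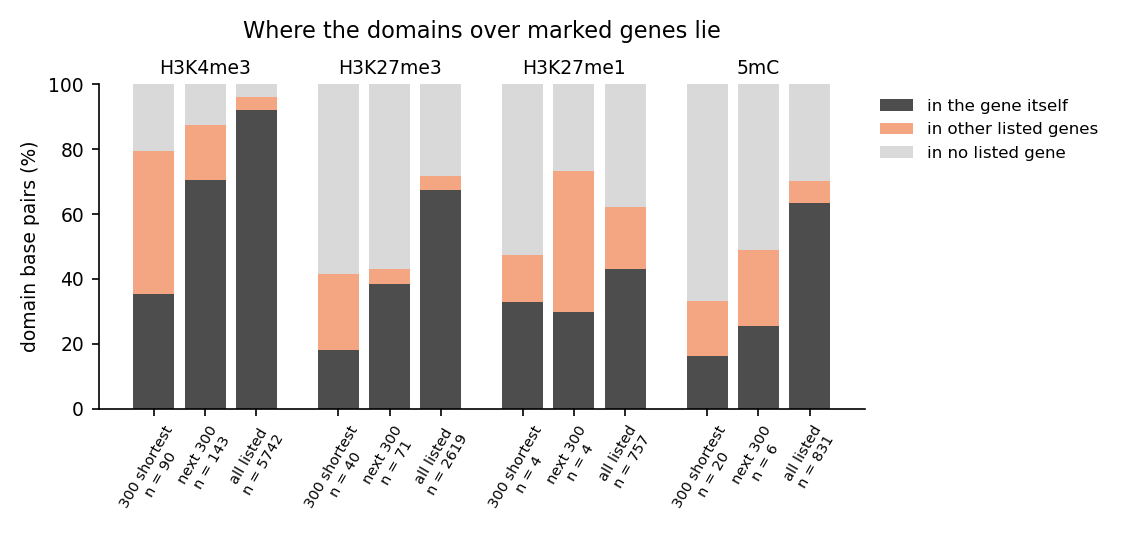
Share of the base pairs of the covering domains (vertical axis, %) that lie in the marked gene itself, in other listed genes or in no listed gene, for the 300 shortest genes, the next 300 by span and all listed genes with each mark over at least 50% of the span; n is the number of marked genes. For H3K4me3 the members hold 35.5% of their domains, and for 5mC 16.2%.

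H3K27me3 covered at least 50% of 40 members (13.3%, interval 9.70 to 17.7%), against 10.8% of all listed genes and 23.7% of the next 300. It was found in 1 of 78 members under 100 bp and in 39 of 222 larger members (17.6%). That member, AL5G21970, matched to TRNAD-GUC and listed at exactly 1, lay in a domain of 2700 bp with 2243 bp in the overlapping AL5G21960. Any contact was found in 42 members (14%), against 17.4% of all listed genes. With the top 50% of domains by score the mark covered 26 members (8.67%), against 8.56% of all listed genes. The 40 members lay in 39 distinct domains with a median width of 1500 bp and a maximum of 6600 bp. The median was 900 bp over the whole list and 1800 bp for domains over all listed genes with the mark. They reached beyond both ends of 27 members. Of their base pairs 18% were in the member, 23.4% in other listed genes and 58.6% in no listed gene. For the next 300 with the mark these shares were 38.4, 4.60 and 57.0%, and for all listed genes with it 67.5, 4.10 and 28.4%. The share in no listed gene was thus close to that of the next 300. The domain had more base pairs in another listed gene for 9 of the 40 (22.5%, interval 10.8 to 38.5%), against 3.02% of all listed genes with H3K27me3 and 4 of 71 in the next 300. It touched another listed gene for 10 (25%), against 6.83%. Without members that overlap a listed gene, it lay more in another gene for 4 of 35 (11.4%), against 2.78% of all such genes. Its centre lay in no listed gene for 16 members, in the member for 17 and in another gene for 7. Of the 71 in the next 300 these counts were 21, 48 and 2. The nearest listed gene was touched by H3K27me3 for 26 of the 40 (65%) and for 19 of 251 members without the mark (7.57%). Over all listed genes these shares were 32.0 and 11.9%. At least 50% of the neighbour was covered for 24 of the 40 (60%), against 23.1% over all listed genes with the mark.

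The mRNA of members with H3K27me3 was low in most and high in a few. Their median coverage was 2.07, with 10 of 40 at exactly 1 (25%) and 7 at 10 or more (17.5%). For all listed genes with the mark the median was 1.70, with 28.5% at the floor and 15.0% at 10 or more. For the next 300 with the mark it was 1.80, with 28.2% at the floor and 25.4% at 10 or more. The share of members at 10 or more thus lay between those of the 2 other sets. AL2G25230 and AL1G21320, the highest of them, lay each in a domain of 600 bp that touched no other listed gene. The 30 members with H3K27me3 and no other mark had a median of 3, and the 80 with H3K4me3 alone had 3.71. The share of all listed genes with H3K4me3 and H3K27me3 together was not computed, so there is no background for the 6 members with both. Of these AL1G48140 (scaffold 1, 16635647 to 16635939, 293 bp) also lay wholly in a 5mC domain of 1050 bp and had a coverage of 37.1. The 5 others ranged from 1 to 3.03. In AL7G19750 and AL6G21180 both domains also lay over longer listed genes that overlap the member, whereas AL4G15820, AL6G38180 and AL4G30140 had no other listed gene under either domain. These 6 were named after their marks were seen.

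H3K27me1 was rare over the members, and 5mC was found over few. H3K27me1 covered at least 50% of 4 members (1.33%, interval 0.364 to 3.38%), against 3.12% of all listed genes and 4 of the next 300. It touched 8 members (2.67%), against 8.28% of all listed genes. With the top 50% of domains by score 1 member had it (0.333%), against 2.08% of all listed genes. At the midpoint the shares were 1.33% of the members and 4.21% of all. The 4 were AL1G59190 (scaffold 1, 28054837 to 28055086), with a coverage of 1.90, AL1G51220 (scaffold 1, 22944945 to 22945270), with 1.65, and AL6G24130 and AL2G15180, both at 1. AL1G59190 also lay wholly in H3K27me3 and 5mC domains, and AL1G51220 had 78.5% of its span in 5mC. In 1 of the 4, AL6G24130, the domain lay more in an overlapping gene, against 4.23% of all listed genes with H3K27me1, and in the same 1 it touched another listed gene, against 10.2%. Among the next 300 with H3K27me1 the domain also lay more in another gene for 1 of 4. Of the 3 members that overlap no listed gene it was 0, against 3.91% of all such genes. None of the 78 members under 100 bp was touched, which allows a share of up to 4.62% by the exact interval.

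5mC covered at least 50% of 20 members (6.67%, interval 4.12 to 10.1%), against 3.42% of all listed genes and 6 of the next 300 (2.00%). The direction turned with the count, as for H3K4me3: any contact was found in 30 members (10%), against 15.1% of all listed genes, and at the midpoint the shares were 7.00 and 4.64%. With the top 50% of domains by score the mark covered 16 members (5.33%), against 3.01% of all listed genes. The domains had a median width of 1050 bp, against 600 bp over the whole list and 2400 bp for domains over all listed genes with the mark. They lay mostly outside listed genes: the centre was in no listed gene for 12 of the 20, in the member for 6 and in another gene for 2. For all listed genes with 5mC it was in no listed gene for 113 of 831, and in the next 300 for 2 of 6. Of the base pairs of the members' domains 16.2% were in the member and 66.7% in no listed gene. The share in no listed gene was 51.0% for the next 300 with 5mC and 30.0% for all listed genes with it. More base pairs lay in another listed gene for 3 of the 20 (15.0%, interval 3.21 to 37.9%), against 5.54% of all listed genes with 5mC. It touched another listed gene for 4 (20%), against 14.9%. Without members that overlap a listed gene the share with the domain more in another gene was 1 of 18 (5.56%), against 5.29% of all such genes. The nearest listed gene was touched by 5mC for 5 of 19 members with the mark (26.3%) and 45 of 272 without it (16.5%), against 42.0 and 13.2% over all listed genes. Median coverage was 1.59, with 6 of 20 at exactly 1 (30%), against 1.75 and 30.6% for all listed genes with 5mC. The highest member with 5mC after AL1G48140 was AL163U10010 (scaffold 163, 151 to 495), with 8.07, inside a domain of 4650 bp at the start of its scaffold. Its nearest listed gene was 6984 bp away.

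A large share of the members was touched by no domain of any mark. There were 147 (49.0%, interval 43.2 to 54.8%), against 7.63% of all listed genes and 30.3% of the next 300. They made up 65 of 78 members under 100 bp (83.3%, interval 73.2 to 90.8%) and 82 of 222 larger ones (36.9%, interval 30.6 to 43.7%). Many of the 65 lie close together: 1 run on scaffold 1 held 13 of them, and 2 on scaffold 2 held 12 and 6. The intervals treat such neighbours as independent. Counting instead members without any mark over at least 50% of the span gives 163 (54.3%), against 63.6% of all listed genes, since a long gene with a narrow domain is then unmarked. The 147 had a median coverage of 1.66, with 46 at exactly 1 (31.3%) and 6 at 10 or more (4.08%). All listed genes touched by no domain had a median of 1.99, with 20.9% at exactly 1 and 9.62% at 10 or more. In the next 300 such genes had a median of 1.53, with 34.1% at exactly 1 and 9.89% at 10 or more. In the tRNA-matched members 37 of 44 were touched by no domain (84.1%), and in the other members under 100 bp 28 of 34 (82.4%).

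The members were spread over 32 scaffolds, with 275 on the 8 main ones. The main scaffolds held between 23 and 61 each, from 0.859% of the listed genes of scaffold 3 to 2.12% of those of scaffold 2. Members under 100 bp were unevenly spread, with 19 on scaffold 1 and 22 on scaffold 2 against 4 to 9 on each of the other six. Larger members numbered 18 to 42 per main scaffold. Within 1 Mb of a scaffold end lay 13.5% of the members on main scaffolds, against 12% of all listed genes there. The 198 members that overlap no listed gene but share a scaffold with one stood at a median of 846 bp from the nearest (quartiles 193 and 2746 bp), against 384 bp over all listed genes and 669 bp for the next 300. Overlaps included, 57.3% of the members had a listed gene within 500 bp, against 55.7% of all listed genes. Those under 100 bp that overlap none were closer to a gene, with a median of 256 bp, and those from 100 to under 300 bp farther, with 1541 bp.

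**Figure D5:**
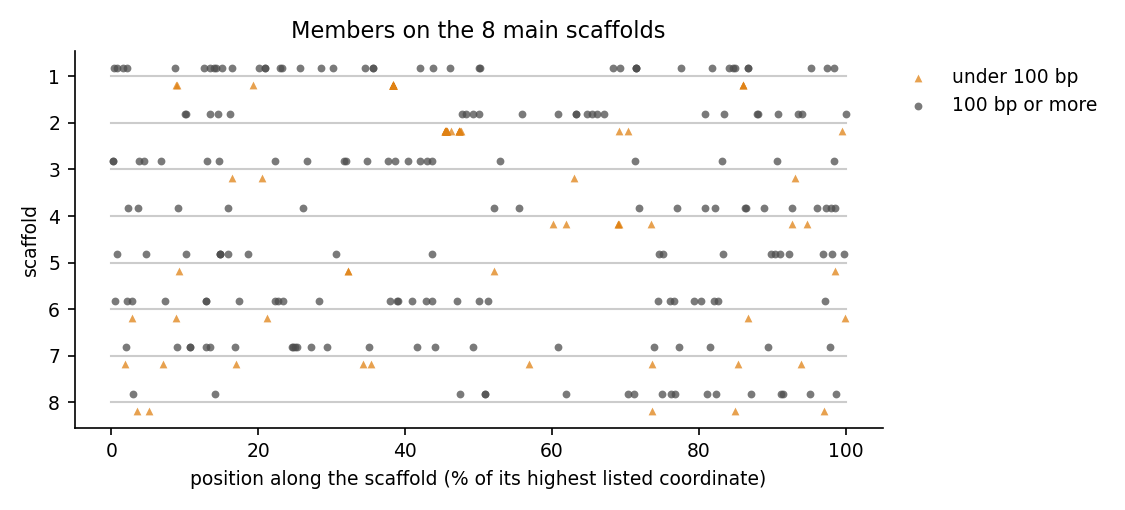
Position of the 275 members on the 8 main scaffolds (vertical axis, scaffold number; horizontal axis, % of the highest coordinate of a gene or domain on that scaffold), with members under 100 bp as orange triangles and the others as grey circles. The triangles gather near 38.3% of scaffold 1 and near 45.4 and 47.3% of scaffold 2.

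The tRNA-sized members of scaffold 1 lie mostly in a tight run. Between 12704563 and 12723032, over 18.5 kb, stood 13 members under 100 bp at a median spacing of 549 bp. Of these, 8 matched a proline tRNA gene, 7 of them TRNAP-UGG, and the other 5 had no match. All 13 overlapped a longer listed gene: 4 lay in AL1G41350 (5401 bp, coverage 2.22), 3 in AL1G41470 (5055 bp, coverage 1.89) and 6 in AL1G41590 (8262 bp, coverage 4.48). Their own coverage ran from 1 to 3.13 with a median of 1.24, and 5 were at exactly 1. The run held 2 H3K4me3 domains over 12.2% of its length and 0 domains of the other marks, and no domain touched a member.

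Outside the 8 main scaffolds stood 25 members (8.33%, interval 5.47 to 12.1%), against 2.69% of all listed genes and 15 of the next 300. Of these 24 had at least 100 bp, a class that makes up 222 of the 300. A small scaffold's length is known here only from the highest coordinate of a gene or domain on it, so an end at that coordinate may be set by the gene itself. Of the 25, 10 lay at such an edge and 16 within 500 bp of it, and 3 of them start at base 1, where the sequence begins. Among all 653 listed genes off the main scaffolds 215 lay at an edge, and 314 within 500 bp of it. On their scaffold 9 of the 25 members were the only listed gene, as were 168 of the 653. AL450U10020 (scaffold 450, 7606 to 7875, 270 bp), at an edge, had the highest coverage of the 25 with 54.2.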

How the data were processed

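The authors deposited 1 domain list per mark, with a whole-number score per domain, and 1 mRNA table with a mean exon coverage per gene, whose normalization is not stated. Per the submitters' processing notes the tools include Bowtie and SICER, with no version. The settings, build and annotation, and whether a list pools replicates, were not given in the sources used here. Depth is unknown, so no value was corrected for it. Domain starts count from 0 with inclusive ends, and were raised by 1. Domains lie on a grid of 150 bp (H3K4me3, 5mC) or 300 bp (H3K27me3 and H3K27me1).

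Genes were ranked by span. A mark was assigned to a gene with at least 50% of its span in domains. Its domain is the 1 with the most base pairs in it. It lay more in another gene when more of it fell in other listed genes, outside the member, than in the member. The nearest gene is the listed gene with the smallest gap, overlaps counting as 0. Genes are not replicates, and no test was made. Shares have exact 95% intervals, and medians are given beside those of other sets. RefSeq genes (v.1.0) were matched on start and end together. Python 3.11.15, pandas 2.3.3, NumPy 2.4.6 and SciPy 1.17.1 were used, and the overlap code was checked on simulated intervals. Input libraries were not used here.

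Genes named are the 3 shortest members, the 5 with the highest coverage, the 2 highest per mark, the 2 lowest with H3K4me3, the 2 highest without any domain, and 2 on each side of the limit. Others are said to have been chosen after their values were seen, or belong to the runs, the tRNA matches, the combined marks or the scaffold edges, all of which were chosen so. The members and lists were chosen with earlier results of these data known. Alternatives varied the share of span, the domains, the number of genes and the members left out.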

Additional observations from a re-analysis of the deposited data

How the results depend on the processing

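No paired analysis was possible because each mark has 1 deposited list and the mRNA 1 library. For the same reason no library could be left out. Of 112 values under alternatives, 74 stayed inside the 95% interval of the value they vary and 38 moved outside it. Intervals of medians come from order statistics. The length classes and the set without tRNA matches were chosen after the data were seen. Which cause lies behind a shift was not tested. With the whole span inside domains, H3K4me3 was found in 16.3% and H3K27me3 in 9% of members. The shares were 9.67 and 8.67% in the next 300 by span, and 1.36 and 2.48% of all listed genes. A short span fits inside a domain more easily, so this count also reflects gene length. With the top 50% of domains by score, 8.00% had H3K4me3, 8.67% H3K27me3 and 0.333% H3K27me1, against 16.7, 8.56 and 2.08% of all listed genes, so that the direction turned for H3K4me3. The domain lay more in another gene for 87.5% of H3K4me3 and 0% of H3K27me1 members (1 member). Matching shares over all listed genes are not given here. For the 150 shortest genes H3K27me3 was at 8.67%, the domain lay more in another gene for 62.5% (H3K4me3) and 53.8% (H3K27me3), median coverage was 1.66, 33.3% were at exactly 1, 5.33% off the main scaffolds and 56.0% overlapped a gene. For the 600 shortest, H3K4me3 was at 38.8%, H3K27me3 at 18.5%, the share of H3K4me3 members with the domain more in another gene at 19.3% and overlap at 16.5%. Without members that overlap a listed gene, the domain lay more in another gene for 13.8% of H3K4me3 members and 0% of 3 H3K27me1 members. Counting genes within 500 bp, 57.3% had a neighbour, against 55.7% of all listed genes. Without members at exactly 1 the median coverage was 3.03. Under 100 bp alone, H3K4me3 was at 11.5%, H3K27me3 at 1.28%, H3K27me1 at 0% and 5mC at 3.85%. The domain lay more in another gene for 100% of 9 H3K4me3, 100% of 1 H3K27me3 and 66.7% of 3 5mC members. Median coverage there was 1.41, with 42.3% at exactly 1, 1.28% off the main scaffolds and 66.7% overlapping. From 100 bp up, H3K4me3 was at 36.5%, median coverage 2.39, 20.3% at exactly 1 and 18.5% overlapping. Without tRNA matches 25.4% overlapped.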

Other observations

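Members of scaffold 2 the size of a tRNA gene lay in stretches that hold listed genes but no domain of any mark. On the 8 main scaffolds 18 stretches of at least 50 kb lacked every mark, and 3 of them held at least 10 listed genes. The stretch from 8746051 to 8922300 (176 kb) held 29 listed genes, 12 of them members under 100 bp, with a median coverage of 3.55 and a maximum of 156. The stretch from 9127801 to 9213000 (85.2 kb) held 13 listed genes, 6 of them members under 100 bp, with a maximum of 436. The last of the 3, on scaffold 3 from 15349801 to 17337600, held 11 listed genes, 1 of them a member.

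Unlike the proline run of scaffold 1, the members in the first of these stretches matched 7 different RefSeq symbols (TRNAW-CCA, TRNAF-GAA, TRNAT-UGU, TRNAS-GGA, TRNAM-CAU, TRNAT-GGU and TRNAR-UCU). The second held TRNAD-GUC, TRNAM-CAU and TRNAF-GAA. The TRNAM-CAU member of each stretch, AL2G20040 and AL2G20530, stood 539 bp from its nearest listed gene, which spans 4744 bp in the first and 4734 bp in the second. Coverage of these nearest genes was 2.70 and 2.19, and that of the members 4.42 and 1.79. AL2G19940 and AL2G19950, 193 bp apart, had 11.0 and 16.8, the highest values of members under 100 bp beside AL7G49390. These stretches and genes were chosen after the values were seen, and no explanation was tested.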
